A study of Fagopyrum tataricum with 12 samples.

Results

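The heat shock proteins and their cognates were followed in seedlings of Tartary buckwheat (Fagopyrum tataricum) during the first 8 h of osmotic stress. Members were the genes whose deposited description contains "heat shock" and not "factor", and 79 of 26750 genes met this rule, which used no expression value. Another 4 genes with "heat shock" in the description were left out for the word "factor". By description and symbol, 34 members were small heat shock proteins, 37 belonged to the HSP70 class and 7 to the HSP90 class. The remaining one was annotated as sti1, a homolog of the co-chaperone that holds HSP70 and HSP90 together. Gene identifiers are given without their shared prefix "evm.TU.".

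Small heat shock proteins form large oligomers that bind unfolding proteins without using ATP and keep them from aggregating. HSP70 proteins bind and release unfolded segments in cycles of ATP hydrolysis that J proteins start, and HSP90 completes the folding of a narrower set of clients, many of them receptors and kinases. The cognates are the forms that cells make without stress. In plants each class has members for the cytosol, the chloroplast and the mitochondrion, heat stress transcription factors drive many of the genes, and several small heat shock genes are also active as seeds dry.

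RNA was taken from leaf and stem of hydroponic seedlings of cultivar Dingku1, grown to the 2-leaf stage in long days. The 12 libraries formed 4 groups of 3. The control group (0 h) was kept in Hoagland's nutrient, and the other groups were held in 20% PEG-6000, an osmotic agent that makes water harder to take up, for 2, 4 or 8 h. Untreated seedlings were sampled only at 0 h, so the effects of PEG and of the hour of the day cannot be told apart. Nothing in the labels ties the 3 libraries of a group to separate plants, and p-values then measure only the spread between these libraries, which may be technical. Between 30468104 and 37395814 reads were counted per library.

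Of the 79 members, 70 had enough counts to be tested, and these included 31 small, 31 HSP70 and all 7 HSP90 genes. The 9 untested members were 3 small and 6 HSP70 genes, with at most 11 reads in any library. A member was called higher or lower when its edgeR quasi-likelihood p-value, adjusted over all 22063 tested genes of the comparison, was under 0.05. Levels of 1 gene over time are given as CPM (reads of the gene scaled to library size, with TMM factors), and levels of different genes are compared only as FPKM, which also divides by coding length. Changes are log2 differences with their standard error (SE).

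The 3 classes followed different courses in summed FPKM. The small class summed to 1010, 1010 and 903 FPKM in the control libraries, to 2020, 2059 and 1892 at 2 h, to 1350, 1399 and 1404 at 4 h, and to 1705, 1558 and 1580 at 8 h. Every treated library lay above every control, with the 2 h libraries highest. The HSP70 class held 3639, 3565 and 3531 FPKM at 0 h, 4194, 4303 and 4275 at 2 h, 3360, 3376 and 3293 at 4 h, and 2572, 2544 and 2594 at 8 h. In FPKM it stood above the controls at 2 h and below them at 4 and 8 h, with no overlap between groups. The 4 h difference was smaller in TMM-scaled CPM, as given below. The HSP90 class summed to 715, 696 and 704 FPKM at 0 h, 746, 767 and 774 at 2 h, 419, 416 and 400.0 at 4 h, and 366, 343 and 363 at 8 h. Its first PEG group was the highest and its last the lowest.

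As ratios of group means to 0 h, the small class stood at 2.04 at 2 h, 1.42 at 4 h and 1.66 at 8 h. The HSP70 class stood at 1.19, 0.934 and 0.718, and the HSP90 class at 1.08, 0.583 and 0.506. FPKM is scaled by library totals, and without TMM the median log2 change of all genes was -0.10 at 4 h and 0.18 at 8 h. In TMM-scaled CPM the HSP70 class stood at 0.975 at 4 h, and the small class at 1.46 at both 4 and 8 h. The FPKM sums are described without a test. They rest on few genes: HSP17.4B gave 62.6% of the increase of the small class at 2 h, and the small class without it stood at 1.43, 1.29 and 1.47. In the HSP70 class, HSC-2 (Ft2.2877) alone made up 52.9% of the summed FPKM over all libraries. Of all FPKM in a library, the HSP70 class took 0.327% to 0.336% at 0 h and 0.225% to 0.229% at 8 h.

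**Figure D1:**
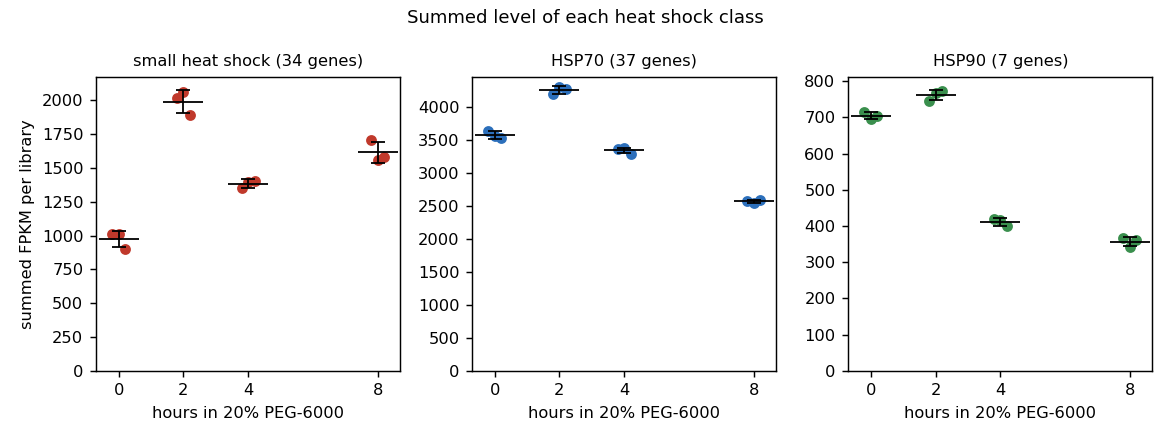
Summed FPKM of the small, HSP70 and HSP90 classes (panels, each with its own axis from 0) against hours in 20% PEG-6000. Points are the 3 libraries of a group, bars the mean and SD; the small class stays above its 0 h level at every PEG time, while HSP70 and HSP90 peak at 2 h and lie below 0 h at 8 h.

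At 2 h against 0 h, 40 of the 70 tested members were higher and 13 lower, compared with 31.6% (higher) and 31.7% (lower) of all genes. At 4 h, 34 members were higher and 21 lower (all genes 35.1% and 37.7%). At 8 h the members split into 35 higher and 24 lower (all genes 36.4% and 34.5%). As shares of the 70, the higher calls were 57.1%, 48.6% and 50.0%, and the lower calls 18.6%, 30% and 34.3%, so the lower share at 8 h was close to the background. The median log2 change of the tested members was 0.36, 0.24 and 0.19, against 0.00, -0.04 and 0.03 for all genes. The lists and their background are from the same fit, and the 3 comparisons share the control libraries.

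With a 2-fold minimum added, 18 members were higher and 2 lower at 2 h, against 9.83% and 8.76% of all genes. At 4 h, 10 were higher and 5 lower (12.9% and 14.1% of all genes), and at 8 h 20 were higher and 13 lower (12.2% and 14.8%). The higher share of members was thus 25.7%, 14.3% and 28.6% at the 3 times, and at 4 h it was near that of all genes. The lower share was 2.86%, 7.14% and 18.6%, the last of these not far above the 14.8% of all genes.

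From 2 to 4 h, 11 members were higher and 36 lower, where 26.3% of all genes were higher and 26.9% lower. From 4 to 8 h, 17 were higher and 26 lower (all genes 33.8% and 31.7%), but this split turned with the setting: without TMM 36 were higher and 18 lower, and by limma on log2(FPKM + 1) 33 and 16. From 2 to 8 h, 17 were higher and 36 lower (all genes 31.3% and 32%). With the 2-fold minimum the counts were 4 and 10 from 2 to 4 h (all genes 4.15% and 4.39%), 7 and 6 from 4 to 8 h (7.62% and 9.97%), and 8 and 17 from 2 to 8 h (7.4% and 11.3%).

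By class, the same calls are set beside the all-gene shares given above (higher and lower: 31.6% and 31.7% at 2 h, 35.1% and 37.7% at 4 h, 36.4% and 34.5% at 8 h). In the small class, 18 genes were higher and 5 lower at 2 h, 19 and 5 at 4 h, and 21 and 7 at 8 h, with medians of 0.48, 0.57 and 0.70; its higher calls made up 58.1%, 61.3% and 67.7% of the 31 tested. In the HSP70 class, 17 were higher and 7 lower at 2 h, 12 and 11 at 4 h, and 11 and 13 at 8 h, with medians of 0.23, 0.03 and 0.02. Its higher share of 54.8% at 2 h was above that of all genes, while 38.7% at 4 h and 35.5% at 8 h were near the background. In the HSP90 class the counts were 4 and 1, then 2 and 5, then 2 and 4, with medians of 0.31, -0.73 and -1.03. The difference between classes was not tested.

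**Figure D2:**
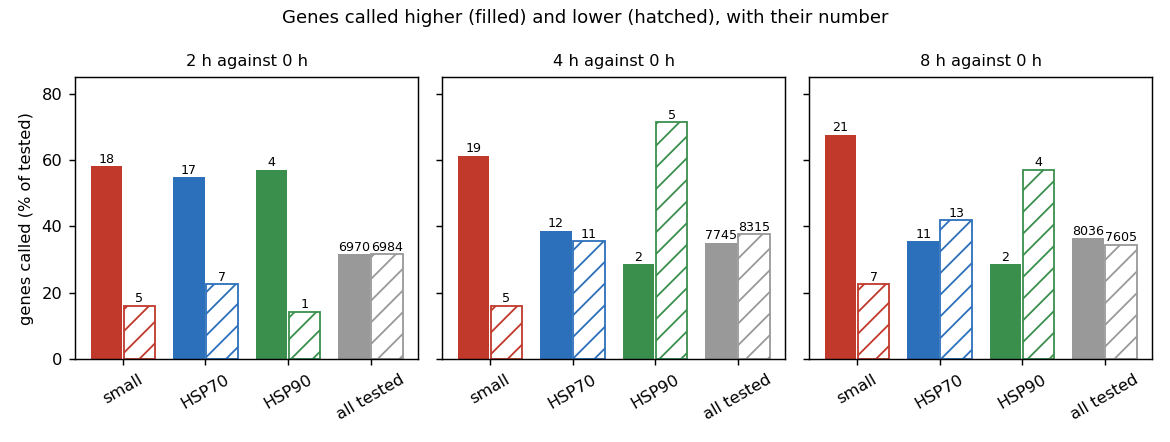
Percent of tested genes called higher (filled) and lower (hatched) at 2, 4 and 8 h against 0 h for the small, HSP70 and HSP90 classes and for all 22063 tested genes, with the number of genes above each bar. Higher calls exceed lower calls in the small class at all 3 times, and in HSP90 only at 2 h.

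Taken gene by gene, 24 tested members were higher at all 3 PEG times, and 14 of these were small, 7 HSP70 and 2 HSP90, with sti1 the last. Another 10 were lower at all 3 times, and 5 passed the test at no time. The share of all tested genes with these courses was not counted, so the counts have no background beside them. The 3 comparisons also share the control libraries. The highest group mean fell at 2 h for 28 members, or 40% of the 70, against 14% of all tested genes. In the HSP70 class 15 of 31 members peaked at 2 h and in the HSP90 class 4 of 7. In the small class 9 of 31 peaked at 2 h and 14 at 8 h. These were 29% and 45.2% of the class, against 14% and 29.9% of all tested genes.

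**Figure D3:**
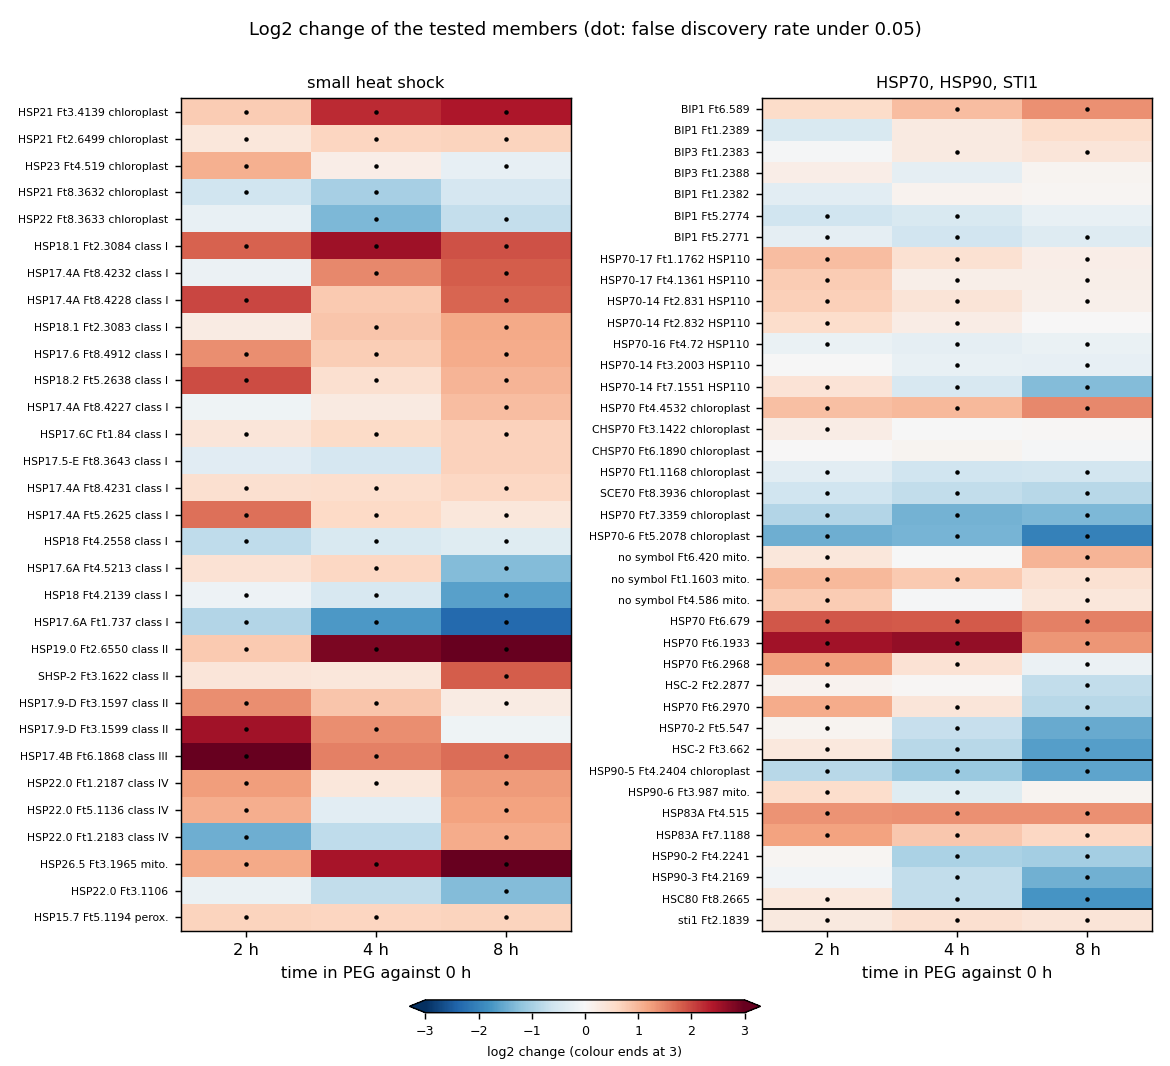
Log2 change against 0 h at 2, 4 and 8 h (columns) of the 70 tested members (rows, labelled by symbol, identifier and subclass), with red higher, blue lower and a dot where the adjusted p was under 0.05; the colour scale ends at 3. Most small genes are red across the row, and the cytosolic-type HSP70 and HSP90 genes turn from red or pale at 2 h to blue at 8 h in most rows.

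Among the small heat shock genes, HSP17.4B (Ft6.1868, chromosome 6) showed the largest change at 2 h. It is the only member annotated as class III, a class whose Arabidopsis member is found in the nucleus. Its CPM was 43.6, 46.4 and 39.9 at 0 h, 343, 360.5 and 327 at 2 h, 124, 122 and 127 at 4 h, and 143, 136 and 133 at 8 h. The 2 h libraries were far above all others, and the later ones stayed above the controls. The fold change was 7.93 at 2 h (log2 2.99, SE 0.05, edgeR adjusted p = 1.75e-36) and 2.87 at 4 h (log2 1.52, adjusted p = 3.44e-27). The step from 2 to 4 h was -1.46 (SE 0.04, adjusted p = 7.61e-27), and at 8 h the gene stood 3.18-fold above 0 h.

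The most abundant small gene was HSP17.6C (Ft1.84, chromosome 1), a cytosolic class I protein, with a mean of 369.8 FPKM. Its CPM was 140.2, 128 and 109 at 0 h, 167, 176 and 144 at 2 h, 182, 190.1 and 191 at 4 h, and 224, 194 and 195 at 8 h. Each PEG group lay above the controls. It rose by log2 0.37 (SE 0.06) at 2 h, 0.57 at 4 h and 0.70 at 8 h (edgeR adjusted p = 2.73e-06, 1.18e-10 and 6.40e-13). HSP15.7 (Ft5.1194), the only peroxisomal member, reached a plateau. Its CPM was 40.2 to 47.7 at 0 h, 65.3 to 73.1 at 2 h, 64.4 to 69.4 at 4 h and 66.1 to 71.0 at 8 h, and the log2 changes of 0.68, 0.63 and 0.67 all passed the test.

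The largest rises by 8 h were in low-abundance genes. HSP19.0 (Ft2.6550), a class II gene, had a CPM of 0.795, 0.896 and 0.440 at 0 h, 1.09, 1.29 and 1.30 at 2 h, 5.27, 4.18 and 5.71 at 4 h, and 13.0, 14.9 and 12.3 at 8 h. The groups did not overlap and each was higher than the one before. The change was 18.8-fold at 8 h (log2 4.23, SE 0.18, edgeR adjusted p = 1.56e-22); at 2 h it was log2 0.78 (adjusted p = 0.00499), a call that was lost without control replicate 3 (log2 0.53). HSP26.5 (Ft3.1965), the only mitochondrial small member, followed the same order. Its CPM was 0.576, 0.353 and 0.220 at 0 h, 0.836, 1.14 and 0.553 at 2 h, 2.04, 1.95 and 2.43 at 4 h, and 7.23, 6.16 and 5.63 at 8 h. The 0 and 2 h libraries overlapped, and at 8 h it stood 16.4-fold above 0 h (log2 4.04, SE 0.27, adjusted p = 1.08e-16).

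HSP18.1 (Ft2.3084), a class I gene, peaked at 4 h. Its CPM was 11.7, 10.7 and 8.74 at 0 h, 36.1, 34.96 and 35.1 at 2 h, 56.6, 63.8 and 60.6 at 4 h, and 42.0, 37.6 and 37.2 at 8 h. All treated libraries were above the controls, with the 4 h group highest at 5.81-fold (log2 2.54, SE 0.07, edgeR adjusted p = 2.32e-28). The step from 4 to 8 h was -0.63 (adjusted p = 2.85e-11).

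Several class I members fell. HSP18 (Ft4.2139) had a CPM of 86.4, 89.7 and 89.7 at 0 h, 81.7, 77.4 and 79.9 at 2 h, 61.8, 64.2 and 66.1 at 4 h, and 29.3, 30.9 and 25.6 at 8 h. Each group lay below the one before, and the change was -0.15 (SE 0.05) at 2 h, -0.47 at 4 h and -1.63 at 8 h (edgeR adjusted p = 0.00572, 5.47e-11 and 8.01e-27). HSP17.6A (Ft1.737) fell further, from 23.5, 26.2 and 25.7 CPM at 0 h to 13.5, 11.8 and 15.4 at 2 h, 7.66, 7.40 and 7.71 at 4 h, and 4.61, 5.71 and 4.80 at 8 h. At 8 h it was at 0.200 of its 0 h level (log2 -2.32, SE 0.10, adjusted p = 1.10e-22).

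**Figure D4:**
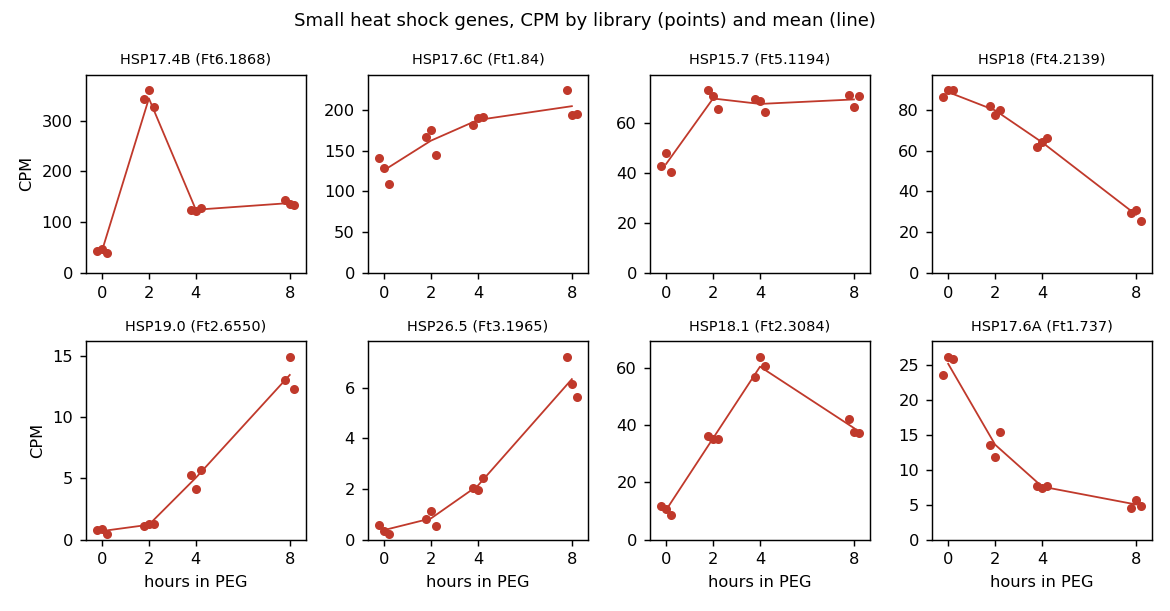
CPM of 8 small heat shock genes in each library (points) and the group mean (line) against hours in PEG; each panel has its own axis from 0. HSP17.4B peaks at 2 h and HSP18.1 at 4 h, HSP19.0 and HSP26.5 are highest at 8 h, and HSP18 and HSP17.6A decline at every step.

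By subclass, 7 of the 15 tested class I genes were higher and 3 lower at 2 h, 9 and 3 at 4 h, and 10 and 4 at 8 h. All-gene shares higher and lower were 31.6% and 31.7% at 2 h, 35.1% and 37.7% at 4 h, and 36.4% and 34.5% at 8 h. Of the 4 class II genes, 3 were higher at each time, though not always the same 3: HSP17.9-D (Ft3.1599) changed by 2.51 at 2 h and -0.12 at 8 h (adjusted p = 0.719), while SHSP-2 (Ft3.1622) changed by 0.37 at 2 h (adjusted p = 0.274) and 1.83 at 8 h. Class IV is the class made for the endoplasmic reticulum in Arabidopsis, and 2 of its 3 tested genes were higher at 2 h and all 3 at 8 h. HSP22.0 (Ft1.2187) had a CPM of 8.44 to 10.9 at 0 h, 22.1 to 25.3 at 2 h, 12.2 to 13.2 at 4 h and 22.01 to 28.2 at 8 h. It was thus high, lower and high again, with log2 changes of 1.24, 0.34 and 1.28 that all passed the test and a step from 4 to 8 h of 0.93 (edgeR adjusted p = 1.63e-11). The low-abundance HSP22.0 (Ft5.1136) had steps of -1.40 and 1.52 in the same order.

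The 5 chloroplastic small genes did not move together. HSP21 (Ft3.4139), whose Arabidopsis counterpart protects plastid transcription and photosystem II under heat, had a CPM of 3.96 to 7.116 at 0 h, 8.52 to 11.04 at 2 h, 24.0 to 28.7 at 4 h and 28.7 to 31.9 at 8 h. It rose by 2.42 (SE 0.11) on the log2 scale at 8 h (edgeR adjusted p = 2.14e-21). HSP21 (Ft2.6499) was also higher at 2, 4 and 8 h, while HSP21 (Ft8.3632) was lower at 2 and 4 h and not called at 8 h. Which of these genes is closest to the Arabidopsis one was not examined. HSP23 (Ft4.519) rose by 1.06 at 2 h and changed by -0.24 at 8 h (adjusted p = 0.000224). HSP22 (Ft8.3633) had a CPM of 6.82 to 8.23 at 0 h, 5.89 to 7.41 at 2 h, 2.77 to 3.18 at 4 h and 4.41 to 4.94 at 8 h. Its 0 and 2 h libraries overlapped, and the changes at 4 and 8 h were -1.36 and -0.72 (adjusted p = 2.55e-11 and 6.08e-06).

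Within the control group, replicate 3 gave the lowest CPM in 20 of the 31 tested small genes, against 33.9% of all tested genes. Such skews were not limited to the controls. Replicate 3 was lowest in 19 of the 31 at 2 h (32.8% of all genes). Replicate 1 was lowest in 16 of the 31 at 4 h (7052 of all 22063 tested genes). Without control replicate 3 the small class sum stood at 1.97 at 2 h, 1.37 at 4 h and 1.60 at 8 h. Each library was left out in turn, as given in the closing section.

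In the HSP70 class, the 7 tested genes with no organelle in their description were all higher at 2 h than at 0 h, and all 7 fell from 4 to 8 h and from 2 to 8 h. At 4 h 4 of them were higher and 2 lower than at 0 h, and at 8 h 2 were higher and 5 lower. Their median log2 change moved from 1.11 to 0.37 to -0.74. This grouping by organelle was made from the descriptions with values known. For this and the HSP70 subclasses below, the all-gene shares higher and lower were 31.6% and 31.7% at 2 h. They were 35.1% and 37.7% at 4 h, and 36.4% and 34.5% at 8 h. Of all genes, 31.7% were lower from 4 to 8 h and 32% from 2 to 8 h.

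HSC-2 (Ft2.2877, chromosome 2), a cytosolic heat shock cognate, was the most abundant member with a mean of 1817 FPKM. Its CPM was 3912, 3869 and 3810.1 at 0 h, 4113, 4162 and 4173 at 2 h, 3982, 4037 and 3834 at 4 h, and 2320.3, 2291 and 2321 at 8 h. The 4 h libraries overlapped the controls and the 8 h libraries were well below all others. The change was 0.10 (SE 0.03) at 2 h, 0.03 at 4 h (edgeR adjusted p = 0.314) and -0.74 at 8 h (adjusted p = 5.22e-24). HSP70-2 (Ft5.547), next in abundance at 527 FPKM and not described as a cognate, fell earlier. Its CPM was 1389.9, 1351 and 1377 at 0 h, 1414, 1458 and 1458 at 2 h, 856, 850.3 and 840.2 at 4 h, and 478, 480.4 and 487 at 8 h.
For HSP70-2 the change was 0.07 (SE 0.03, adjusted p = 0.0362) at 2 h, -0.69 at 4 h and -1.51 at 8 h (adjusted p = 2.71e-33). The small rise at 2 h was lost under several other settings, among them DESeq2 size factors.

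HSP70 (Ft6.679), the third most abundant at 355 FPKM, is also described as a heat shock cognate, and it kept its rise. Its CPM was 268, 248 and 233 at 0 h, 888, 942 and 888 at 2 h, 895, 884 and 891 at 4 h, and 744, 692 and 698 at 8 h. All treated libraries were far above the controls, with fold changes of 3.63, 3.56 and 2.85 (edgeR adjusted p = 4.40e-32, 2.74e-32 and 1.18e-29). It gave 49.7% of the increase of the class sum at 2 h. The neighbours HSP70 (Ft6.2968) and HSP70 (Ft6.2970), both likewise described as heat shock cognates, rose and then fell together. Ft6.2970 had a CPM of 134, 131 and 136 at 0 h, 285, 288 and 293 at 2 h, 170.2, 171 and 177 at 4 h, and 77.6, 74.1 and 74.4 at 8 h. Its log2 changes were 1.11, 0.37 and -0.83, and those of Ft6.2968 were 1.22, 0.44 and -0.18, all past the test; the last of these was lost without TMM scaling (log2 -0.03).

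The second HSC-2 gene (Ft3.662) repeated the course of HSP70-2 at lower abundance (58.1 FPKM). Its CPM was 147, 137 and 154 at 0 h, 178, 186 and 184 at 2 h, 80.1, 82.9 and 82.1 at 4 h, and 44.8, 47.0 and 48.1 at 8 h. No groups overlapped, and the changes were 0.33, -0.84 and -1.65 (edgeR adjusted p = 7.41e-09, 4.00e-20 and 2.45e-29).

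The HSP110 type (HSP70-14, HSP70-16 and HSP70-17) acts as a nucleotide exchange factor for HSP70 in other eukaryotes. At 2 h 5 of its 7 tested genes were higher and 1 was lower, at 4 h 4 and 3, and at 8 h 3 and 3. The shares at 8 h, 42.9% higher and 42.9% lower, were near those of all genes (36.4% and 34.5%). From 2 to 8 h 6 of the 7 were lower. HSP70-14 (Ft7.1551), the most abundant at 66.6 FPKM, had a CPM of 193, 190.4 and 199 at 0 h, 255, 263 and 259.8 at 2 h, 139, 143 and 137 at 4 h, and 79.1, 79.3 and 78.7 at 8 h. It went from above to below the controls, at 0.42, -0.48 and -1.30 (edgeR adjusted p = 3.81e-13, 8.27e-15 and 2.32e-28). HSP70-17 (Ft1.1762) stayed higher at all times, with changes of 0.93, 0.45 and 0.21.

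The 3 mitochondrial HSP70 genes, which carry no symbol, were all higher at 2 h and at 8 h. Ft4.586, the most abundant of them at 49.4 FPKM, had a CPM of 82.9, 79.4 and 82.8 at 0 h, 129, 142 and 143 at 2 h, 82.5, 78.4 and 78.3 at 4 h, and 102.9, 104.6 and 103.4 at 8 h. The 4 h libraries overlapped the controls (adjusted p = 0.479), and the changes at 2 and 8 h were 0.76 and 0.34. BiP is the HSP70 of the endoplasmic reticulum. The 10 members described as BiP had coding lengths of 411 to 1596 bases, short of the HSP70 class median of 1947. They summed to 36.0 to 48.1 FPKM in a library, so these counts may not stand for BiP as a whole. Of 7 tested genes described as BIP1 or BIP3, 2 were lower at 2 h and the other 5 did not pass the test. At 4 h 2 were higher and 2 lower (28.6% each, near the all-gene 35.1% and 37.7%), and at 8 h 2 and 1. BIP1 (Ft6.589), at 0.682 FPKM, changed by 1.38 (SE 0.34) at 8 h (adjusted p = 0.000513). Descriptions containing "luminal-binding" were counted in the list of endoplasmic reticulum chaperones and not here.

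Of the 7 chloroplast HSP70 genes, which help to import and fold proteins in the stroma, 2 were higher and 4 lower at 2 h, and 1 and 4 at 4 h and at 8 h. The most abundant, HSP70 (Ft7.3359), had a CPM of 486, 462 and 499.7 at 0 h, 258, 253 and 277 at 2 h, 184, 179 and 182 at 4 h, and 195, 188 and 188 at 8 h. All treated libraries were below the controls, with changes of -0.88, -1.41 and -1.34 (edgeR adjusted p = 2.83e-22, 4.15e-29 and 1.57e-28). HSP70 (Ft4.4532) went the other way, with a CPM of 19.0 to 19.1 at 0 h, 33.7 to 37.5 at 2 h, 35.4 to 38.6 at 4 h and 49.6 to 53.0 at 8 h, and it rose by 1.44 (SE 0.06) at 8 h (adjusted p = 1.64e-23). HSP70-6 (Ft5.2078), at 0.586 FPKM, fell by 2.02 on the log2 scale at 8 h (SE 0.33, adjusted p = 8.90e-07).

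In the HSP90 class, the abundant cytosolic genes fell after 2 h while a less abundant pair stayed high. HSC80 (Ft8.2665), the most abundant at 170.3 FPKM, had a CPM of 454, 462 and 470.0 at 0 h, 559.9, 575 and 585 at 2 h, 289.6, 279 and 268 at 4 h, and 138, 129 and 137 at 8 h. No groups overlapped, and the changes were 0.31 (SE 0.04), -0.73 and -1.78 (edgeR adjusted p = 6.57e-10, 1.40e-20 and 4.98e-33). HSP90-2 (Ft4.2241), at 167 FPKM and so level with HSC80, had a CPM of 476, 449.6 and 461 at 0 h, 474, 481 and 488 at 2 h, 244, 244 and 233 at 4 h, and 230.0, 222 and 227 at 8 h. The 0 and 2 h libraries overlapped (adjusted p = 0.146), and the gene fell by 0.94 on the log2 scale at 4 h and by 1.03 at 8 h. HSP90-3 (Ft4.2169) followed with -0.08 at 2 h (adjusted p = 0.116), -0.73 at 4 h and -1.44 at 8 h.

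The HSP83A genes showed the other course. HSP83A (Ft7.1188), at 58.3 FPKM, had a CPM of 78.1, 76.5 and 69.7 at 0 h, 166, 173 and 179 at 2 h, 129.7, 136 and 124 at 4 h, and 125, 108 and 114 at 8 h. All treated libraries were above the controls, and the changes were 1.21 (SE 0.05), 0.80 and 0.63 (edgeR adjusted p = 3.13e-23, 1.14e-17 and 1.44e-14). HSP83A (Ft4.515) was scarce, at 1.76 FPKM. Its CPM was 1.52 to 1.81 at 0 h, 3.96 to 4.55 at 2 h, 3.97 to 5.24 at 4 h and 3.89 to 5.07 at 8 h, and its changes of 1.34, 1.38 and 1.36 passed the test.

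The organelle forms of HSP90 differed from each other. HSP90-5 (Ft4.2404), the chloroplast form, had a CPM of 379, 357 and 364 at 0 h, 206, 207 and 208 at 2 h, 173, 170.0 and 169 at 4 h, and 127, 115 and 127 at 8 h. It fell at each step, by 0.82, 1.10 and 1.58 against 0 h on the log2 scale (edgeR adjusted p = 2.58e-21, 1.37e-25 and 1.31e-30). HSP90-6 (Ft3.987), the mitochondrial form, had a CPM of 47.0 to 52.9 at 0 h, 71.2 to 77.1 at 2 h, 37.5 to 40.0 at 4 h and 52.4 to 54.8 at 8 h. It was above 0 h at 2 h (log2 0.54), below it at 4 h (log2 -0.37) and overlapped it at 8 h (log2 0.08, adjusted p = 0.168).

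The co-chaperone sti1 (Ft2.1839) had a CPM of 70.5, 72.2 and 64.4 at 0 h, 85.5, 86.3 and 83.8 at 2 h, 98.7, 95.1 and 97.1 at 4 h, and 97.4, 84.9 and 87.8 at 8 h. All treated libraries were above the controls. It rose by 0.30 (SE 0.05), 0.49 and 0.38 on the log2 scale (edgeR adjusted p = 7.18e-07, 8.74e-12 and 3.95e-09).

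**Figure D5:**
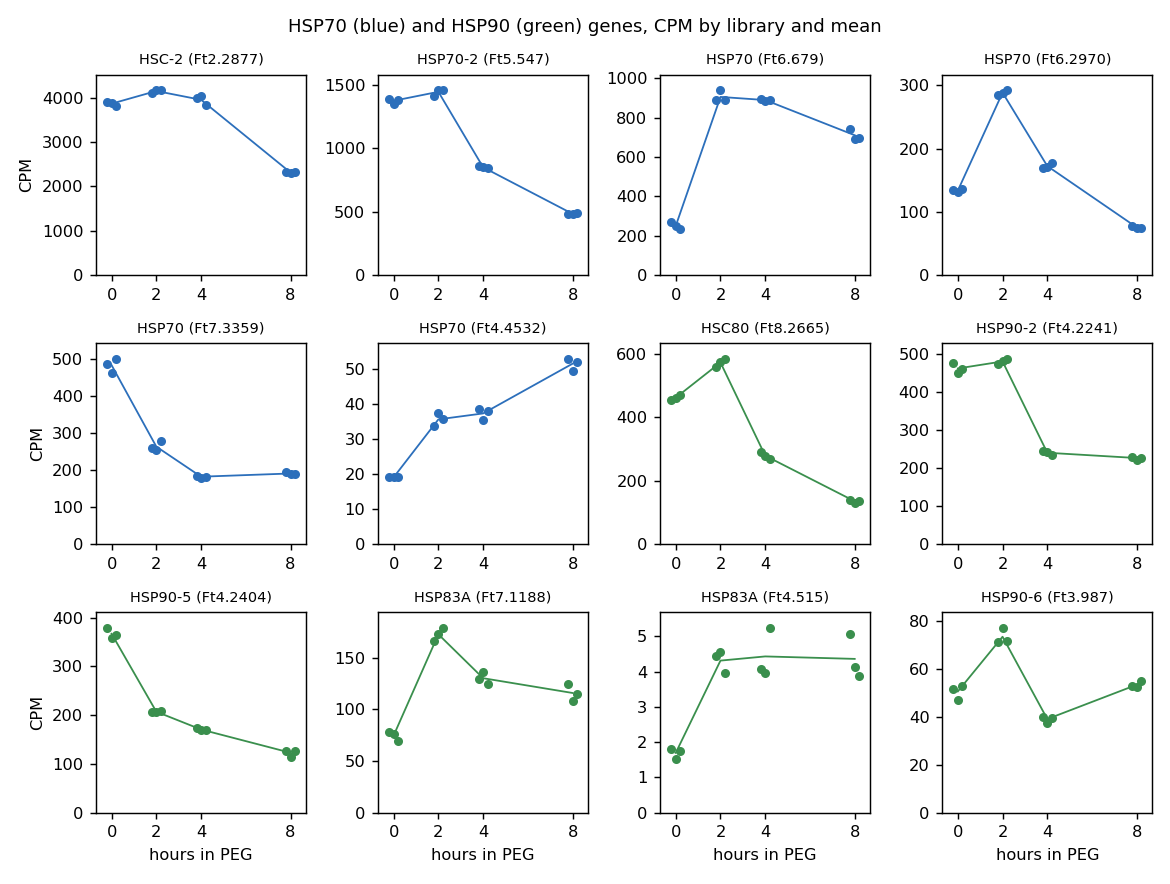
CPM of 6 HSP70 genes (blue) and 6 HSP90 genes (green) in each library (points) and the group mean (line) against hours in PEG; each panel has its own axis from 0. HSC-2, HSP70-2, HSC80 and HSP90-2 end well below 0 h, HSP70 Ft6.679 and both HSP83A genes stay above it, and the chloroplast genes HSP70 Ft7.3359 and HSP90-5 drop from the first PEG group on.

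The chloroplast genes that fell did so in libraries where leaf markers fell as well. The summed FPKM of 19 chlorophyll a-b binding and Rubisco small subunit genes ranged from 86515 to 92374 at 0 h, 51045 to 54429 at 2 h, 37733 to 38279 at 4 h and 13511 to 14202 at 8 h. Of the 19, 18 were called lower at 8 h (94.7%, against 34.5% of all genes). The part of this in the falls of HSP90-5 and HSP70 (Ft7.3359) was not tested; in bulk samples fewer cells of a type and less RNA per cell cannot be told apart. The sums of 32 stem and vascular genes were 82.9 to 94.7 at 0 h, 65.7 to 76.1 at 2 h, 156 to 165 at 4 h and 91.8 to 101 at 8 h. Of the 28 tested, 6 were called higher and 3 lower at 4 h (21.4% and 10.7%, against 35.1% and 37.7% of all genes). At 8 h 17 were called higher and 4 lower (60.7% higher, against 36.4% of all genes). The sums and the calls of this list thus did not move together. The sums of 20 root genes were 96.5 to 106 at 0 h, 103 to 111 at 2 h, 87.6 to 91.1 at 4 h and 96.1 to 99.8 at 8 h. Of the 7 tested, 2 were higher and 4 lower at 8 h (28.6% and 57.1%, against 36.4% and 34.5% of all genes). The sums of 15 seed genes (storage proteins and oleosins) were 57.0 to 62.4 at 0 h, 137 to 148 at 2 h, 169 to 177 at 4 h and 234 to 263 at 8 h. Of the 11 tested, 9 were higher and 2 lower at 8 h (81.8% higher, against 36.4% of all genes). Their part in the late rises of HSP19.0 and HSP26.5 was not tested. No marker of these 4 lists was at 0 in all libraries.

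Calls in 6 related lists are given next, each against all-gene shares of 31.6% higher and 31.7% lower at 2 h, 35.1% and 37.7% at 4 h, and 36.4% and 34.5% at 8 h. Heat stress transcription factors, which bind the promoters of heat shock genes, had 22 of 32 tested genes higher and 5 lower at 2 h, 25 and 5 at 4 h, and 17 and 6 at 8 h, with medians of 0.95, 0.77 and 0.28; their higher shares were 68.8%, 78.1% and 53.1%. J proteins, the partners of HSP70, had 28 higher and 17 lower of 73 at 2 h, 31 and 17 at 4 h, and 21 and 27 at 8 h. Their higher shares of 38.4%, 42.5% and 28.8% were nearer the background. The Clp/HSP100 list, whose ClpB members pull proteins out of aggregates, had 5 of 8 higher at 2 h, and 6 higher and 1 lower at both later times. Chaperonins, the ring-shaped folding machines of plastids, mitochondria and cytosol, had 8 higher and 9 lower of 31 at 2 h, 5 and 22 at 4 h, and 10 and 14 at 8 h, so that 71% were lower at 4 h. Chaperones of the endoplasmic reticulum had 9 higher and 2 lower of 16 at 2 h, 5 and 5 at 4 h, and 5 and 7 at 8 h; their higher share was 56.2% at 2 h and 31.2% at both later times. BAG proteins, which act on the nucleotide cycle of HSP70 in animals, had 5 higher and 2 lower of 10 at 2 h, 4 and 4 at 4 h, and 6 and 3 at 8 h.

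Members lay on all 8 chromosomes, from 3 on chromosome 7 to 14 on chromosome 4, as read from the gene identifiers. There were 11 runs of members whose serial numbers lay within 5 of each other. The 4 HSP17.4A genes of the run on chromosome 8 did not share a course. Ft8.4228 changed by 2.00 at 2 h (edgeR adjusted p = 4.65e-06), Ft8.4231 by 0.48 (adjusted p = 0.00999), and Ft8.4227 and Ft8.4232 by -0.12 and -0.18, neither past the test. At 8 h all 4 were higher, by 0.63 to 1.82. The neighbouring HSP18.1 genes also differed: Ft2.3083 changed by 0.24 at 2 h (adjusted p = 0.0505) and Ft2.3084 by 1.77. Genes of the same name may be near-identical copies, and how reads that match several copies were counted is not given in the sources used here, so the split between such neighbours is uncertain.

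The deposited annotation groups the members beyond the rule. Of the 65 members with a pathway, 62 were assigned to protein processing in the endoplasmic reticulum, and all 7 HSP90 genes to plant-pathogen interaction. Of 69 members with a Gene Ontology term, 41 carried unfolded protein binding and 31 response to heat. In the small class 24 of 34 carried response to heat and 24 response to hydrogen peroxide. All 79 coding lengths were multiples of 3; the median was 504 bases in the small class, 1947 in HSP70 and 2115 in HSP90. The shortest HSP70 model, CHSP70 (Ft3.1422), had 330 bases, far below the median of its class.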

How the data were processed

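Whole-number read counts per gene and FPKM were deposited by the authors for 12 libraries, as separate tables. Per the submitters' processing notes, the authors' tools included fastp, HISAT2, HTSeq and DESeq2; their versions, the genome build, annotation release, strand setting and handling of multiply mapped reads are not given in the sources used here. Gene symbols, descriptions and annotation terms were those deposited by the authors, and no sequence was used.

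Counts were fitted with edgeR 4.0.16 (R 4.3.3): TMM factors (0.936 to 1.10), filterByExpr by group (minimum count 10, minimum total 15; 4687 genes removed, 22063 kept), 1 quasi-likelihood model of all 12 libraries with group means only, and Benjamini-Hochberg adjustment per comparison at 0.05. The common biological coefficient of variation was 4.90%. An SE is the log2 change divided by the square root of F. Every adjusted p of a single gene is edgeR's. limma 3.58.1 on log2(FPKM + 1), DESeq2 1.42.0, other scalings, filters, left-out libraries and a replicate block were alternatives. The fit was tested on simulated data.

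Genes were named by a rule: per class, the 4 highest mean FPKM, and the 4 largest rises and 3 largest falls among called members of at least 1 CPM. Others named (for example Ft6.2970, Ft7.1551, Ft1.1762, Ft4.586, HSP21, HSP23, SHSP-2 and the HSP17.9-D, HSP17.4A and HSP22.0 genes) were chosen after their values were seen. The members and lists were chosen with earlier results of these data known. Replicates differed by more than sampling noise, so none was merged. Libraries of the same number did not deviate together (18 pairs, r from -0.0357 to 0.0277), so the numbers do not pair them.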

Additional observations from a re-analysis of the deposited data

Results flagged for a closer look

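Some members were called on opposite sides of 0 h at different PEG times, with the step between those times also past the edgeR test. All comparisons below share the control libraries, and groups of 3 were too small for a check of single outlying libraries. The share of all tested genes that cross in this way was not counted, so the counts below have no background beside them.

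From 2 to 4 h, 5 members crossed from above to below 0 h. The step was -0.90 for HSP70-14 (Ft7.1551), -1.16 for HSC-2 (Ft3.662), -0.77 for HSP70-2 (Ft5.547), -0.91 for HSP90-6 (Ft3.987) and -1.04 for HSC80 (Ft8.2665), all log2. The HSP70-2 crossing rests on a rise at 2 h of 0.07 that several settings do not call.

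From 2 to 8 h, 8 members crossed downwards. The step was -1.72 for HSP70-14 (Ft7.1551), -0.84 for HSC-2 (Ft2.2877), -1.97 for HSC-2 (Ft3.662), -1.58 for HSP70-2, -1.40 for HSP70 (Ft6.2968), -1.94 for HSP70 (Ft6.2970), -2.09 for HSC80 and -1.29 for the chloroplastic HSP23 (Ft4.519).

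HSP22.0 (Ft1.2183), of class IV, crossed upwards. Its CPM was 0.411, 0.272 and 0.192 at 0 h, 0.0836, 0.117 and 0.111 at 2 h, and 0.494, 0.902 and 0.522 at 8 h, a step of 2.57 (adjusted p = 0.000105). The 2 h values stand for 3 or 4 reads in a library.

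From 4 to 8 h the step was -0.61 for HSP70 (Ft6.2968), -1.19 for HSP70 (Ft6.2970), -0.43 for HSP23 and -1.93 for HSP17.6A (Ft4.5213). The last rose by 0.62 at 4 h, with libraries that overlapped the controls, and stood at -1.31 at 8 h.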

How the results depend on the processing

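No class ratio crossed 1 under the alternatives run. With a 2-fold minimum the higher and lower members numbered 18 and 2 at 2 h, 10 and 5 at 4 h, 20 and 13 at 8 h, 4 and 10 from 2 to 4 h, 7 and 6 from 4 to 8 h, and 8 and 17 from 2 to 8 h. From 4 to 8 h the higher members numbered 36 by library totals without TMM, 33 by limma on log2(FPKM + 1) with or without its filter and 32 with a pseudocount of 0.1, and the lower ones 16 by limma with either pseudocount. Without TMM the median log2 change of all genes was -0.10 at 4 h and 0.18 at 8 h, and the members split into 42 and 13, 31 and 22, and 39 and 19. A stricter filter (1 CPM in at least 3 libraries and a mean of 5 CPM) left 11 higher members from 2 to 8 h. Other counts stayed within 1.5 times.

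As ratios to 0 h at 2, 4 and 8 h, TMM-scaled CPM gave 1.46 at 4 h and 1.46 at 8 h for the small class, 0.975 at 4 h and 0.640 at 8 h for HSP70, and 1.06, 0.608 and 0.455 for HSP90. Without the most abundant member they were 2.32 at 2 h (small), 1.31, 0.884 and 0.783 (HSP70), and 1.003 at 2 h and 0.587 at 8 h (HSP90). Without HSP17.4B, an alternative chosen after seeing the data, the small class gave 1.43, 1.29 and 1.47. The cause of these shifts was not tested beyond the genes left out.

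Leaving out 1 library at a time gave 38 to 41 higher and 11 to 13 lower members at 2 h, 31 to 34 and 20 to 21 at 4 h, 32 to 35 and 22 to 24 at 8 h, 10 to 12 and 34 to 37 from 2 to 4 h, 15 to 19 and 23 to 26 from 4 to 8 h, and 14 to 18 and 33 to 36 from 2 to 8 h. The class ratios ranged over 1.97 to 2.09, 1.37 to 1.45 and 1.60 to 1.69 (small), 1.18 to 1.20, 0.928 to 0.942 and 0.713 to 0.724 (HSP70), and 1.07 to 1.09, 0.578 to 0.591 and 0.5001 to 0.517 (HSP90).

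With a replicate block, 41 members were higher and 13 lower at 2 h, 34 and 21 at 4 h, and 35 and 24 at 8 h; the replicate numbers share only a number.

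Of the single-gene results, 1667 kept their side of the threshold, 15 lost a call and 10 gained one. The rise of HSP70-2 at 2 h was lost with DESeq2 size factors, without a filter, with the stricter filter, in a fit of 6 libraries, and without control replicate 2 or 2 h replicate 2 or 3. HSP90-6 at 8 h and HSP90-2 at 2 h were called higher without TMM and by limma (log2 0.23 and 0.08 without TMM). The rise of BIP1 (Ft6.589) at 4 h was lost without control replicate 3 or 4 h replicate 1. A call could not be tested in the 9 members with too few reads.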
